A study of Mus musculus with 23 samples.

Results

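The 10 genes examined here carry out or receive serotonin signalling in the brain: Tph2 (tryptophan hydroxylase 2), Slc6a4 (the serotonin transporter), Fev (the transcription factor also called Pet-1), and the receptor genes Htr1a, Htr1b, Htr2a, Htr2c, Htr3a, Htr4, and Htr7. They were chosen by name, and every probe that the array files assign to one of these symbols was taken. This gave 13 probes for 10 genes, out of 39429 probes for 31829 gene names on the array. Htr2c had 3 probes, Htr4 had 2, and each of the other genes had 1.

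The study asked whether the diet of the mother during pregnancy alters the brain of the progeny. Embryos made by in vitro fertilization from C57BL/6J eggs and sperm were transferred into ICR females fed a control diet (CD, 20% casein and 0.02% folic acid by weight), a protein-restricted diet (PR, 5% casein and 0.02% folic acid), or the protein-restricted diet with added folic acid (FA, 5% casein and 0.1% folic acid). The recipients ate these diets from a month before the transfer until delivery. All progeny were delivered by cesarean section, raised by ICR foster mothers, and fed the CD after weaning. RNA was taken from the whole brain of males at 19 weeks of age, after the behavioral tests of the study, which included foot shock. There were 4 mice per diet with 1 single-colour Agilent array per mouse. The embryos of several egg donors were mixed, the study's methods describe the foster mothers' diet in more than one way, and the labels do not say which brothers shared a recipient mother. P values therefore measure the spread between mice without regard to litter.

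Serotonin in the brain is made by a small group of neurons in the raphe nuclei of the brain stem, whose axons reach nearly every other region. Tph2 carries out the limiting step of its synthesis, Slc6a4 takes it back up into the neuron, and Fev switches on both genes during development and maintains them in the adult. The receptors are mostly made by the target neurons: Htr1 receptors lower cyclic AMP, Htr2 receptors act through phospholipase C, Htr4 and Htr7 raise cyclic AMP, and Htr3a is a subunit of an ion channel. In whole-brain RNA, fewer cells of a type and less RNA per cell cannot be told apart.

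All 4 arrays of a diet lay on 1 slide, so slide and diet cannot be told apart. The CD slide differed from the others in its background: the negative control spots read 28.1 to 34.8 units of net signal on the CD arrays, 42.7 to 51.2 on the PR arrays, and 39.3 to 47.6 on the FA arrays. Between 27068 and 28458 of 43020 spots were well above the local background on the CD arrays, against 31266 to 33478 on the PR arrays and 30408 to 31672 on the FA arrays. No spot was saturated. The pituitary hormone transcripts also differed: Gh (growth hormone) read 7.73 to 8.37 on the log2 scale and Prl (prolactin) 7.84 to 7.98 on the CD arrays, both were well above background on none of the PR arrays, and of the FA arrays only replicate 4 carried them, at 6.16 and 7.35. Of the 10 probes of an anterior pituitary marker list, 2 were called lower in PR than in CD, and 2 lower and 1 higher in FA than in CD. That is 20% and 30% of the list, where 30% and 34.4% of all probes on the array were called. The summed level of the list was 14.11 to 14.50 in CD, 13.77 to 14.63 in PR, and 13.98 to 14.20 in FA. This sum was set mostly by the 3 probes well above background on all arrays, which alone gave 14.05 to 14.45 in CD. Gh and Prl hardly enter it, so it cannot show whether the amount of pituitary tissue was equal. The part of slide, background, and dissection in the differences from CD given here was not tested.

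The raphe transcripts Tph2 and Slc6a4 were both measured well above background in all 12 brains, and their regulatory regions are shown because their levels turned out to vary together. Both are given as RefSeq windows of 300 bases (build GRCm38.p6), most of which lie upstream of the annotated start. Capitals mark GGAA or its reverse complement TTCC, the core that proteins of the ETS family, to which Fev belongs, are known to bind. The Tph2 window lies at chr10:115184973-115185272 on the minus strand and the Slc6a4 window at chr11:76998347-76998646 on the plus strand.
Tph2: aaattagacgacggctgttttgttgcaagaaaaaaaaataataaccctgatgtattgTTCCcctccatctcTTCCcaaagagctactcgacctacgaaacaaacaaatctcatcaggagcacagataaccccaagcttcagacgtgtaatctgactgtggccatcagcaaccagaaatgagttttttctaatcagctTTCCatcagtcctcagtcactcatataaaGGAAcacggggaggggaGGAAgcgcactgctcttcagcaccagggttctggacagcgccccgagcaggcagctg
Slc6a4: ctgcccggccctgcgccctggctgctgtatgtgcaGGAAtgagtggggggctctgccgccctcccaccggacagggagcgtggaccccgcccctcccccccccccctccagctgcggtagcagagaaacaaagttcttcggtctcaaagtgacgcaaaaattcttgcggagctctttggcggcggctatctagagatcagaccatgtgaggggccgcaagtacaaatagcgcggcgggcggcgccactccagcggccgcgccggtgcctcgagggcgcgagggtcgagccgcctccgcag
The Tph2 window held 5 matches to GGAA on either strand and the Slc6a4 window 1. Such matches are common: 95.9% of 27025 promoter windows of this length held at least 1, and the median window held 3. The longer form CCGGAA, searched on both strands and overlapping GGAA, occurred in 15.2% of windows and in neither of these.

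Levels are given on the log2 intensity scale of the deposited values. Tph2 (probe at mm9 chr10:114516684-114516743, minus strand) read 7.46, 7.28, 7.28, and 7.19 in CD replicates 1 to 4. It read 7.44, 7.75, 7.62, and 7.69 in the PR mice. It read 8.05, 4.50, 8.01, and 7.14 in the FA mice. FA replicate 2 thus lay 6.22-fold below the lowest of the other 11 brains and 11.3-fold below the median of the other FA mice, while FA replicates 1 and 3 held the highest values of all. Slc6a4 (chr11:76845777-76845836, plus strand) read 7.94, 7.67, 7.89, and 7.96 in CD, 7.50, 8.17, 8.03, and 7.88 in PR, and 8.14, 5.16, 8.05, and 7.47 in FA. The same mouse, FA replicate 2, lay 4.96-fold below the lowest of the other 11. The image software, Feature Extraction, marked neither spot as an outlier, and both were still well above the local background in that mouse. Both spots were dim there, however, with processed signals of 23.4 for Tph2 and 35.7 for Slc6a4. Processed signals have the local background and a spatial trend removed. They are a different measure from the net signal given above for the negative controls. The folds depend on the background treatment. With a normexp background, the FA to CD difference moved from -0.38 to -0.05 for Tph2 and from -0.66 to -0.36 for Slc6a4.

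Neither gene was called different between diets. An adjusted p under 0.05 in limma (Benjamini-Hochberg over all 39429 probes) is called here. Tph2 differed by 0.32 (SE 0.64, adjusted p = 0.735) between PR and CD, by -0.38 (SE 0.64, adjusted p = 0.682) between FA and CD, and by -0.70 (adjusted p = 0.687) between FA and PR. The FA comparisons rested on FA replicate 2: without it, the FA to CD difference of Tph2 was 0.43 (adjusted p = 0.131) and the FA to PR difference 0.11. The 3 diets shared 1 estimate of the spread, and the SD of Tph2 was 0.12 in CD, 0.13 in PR, and 1.67 in FA. The SE between PR and CD thus carried the spread of the FA mice. Without FA replicate 2, the limma adjusted p of that difference was 0.219. When the CD and PR mice were fitted alone, the PR mice were called higher at the same 0.32 (adjusted p = 0.0314), although the groups overlapped by 1 mouse each. Slc6a4 differed by 0.03 (SE 0.54, adjusted p = 0.972) between PR and CD and by -0.66 (SE 0.54, adjusted p = 0.38) between FA and CD, and the second value became 0.02 without FA replicate 2. The intervals for Slc6a4, -1.17 to 1.24 for PR and -1.87 to 0.55 for FA, include differences of more than 2-fold. Both widths carry the spread of the FA mice, whose SD was 1.39, against 0.13 in CD and 0.29 in PR.

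Fev (chr1:74928260-74928319, minus strand), the factor upstream of both, did not share the low value. It read 6.01, 6.28, 5.98, and 6.53 in CD, 6.24, 6.12, 6.42, and 6.43 in PR, and 6.69, 6.09, 6.61, and 6.44 in FA. FA replicate 2 was the lowest FA mouse but lay within the range of the CD mice. The differences from CD were 0.11 (SE 0.15, adjusted p = 0.64) in PR and 0.26 (SE 0.15, adjusted p = 0.226) in FA.

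**Figure D1:**
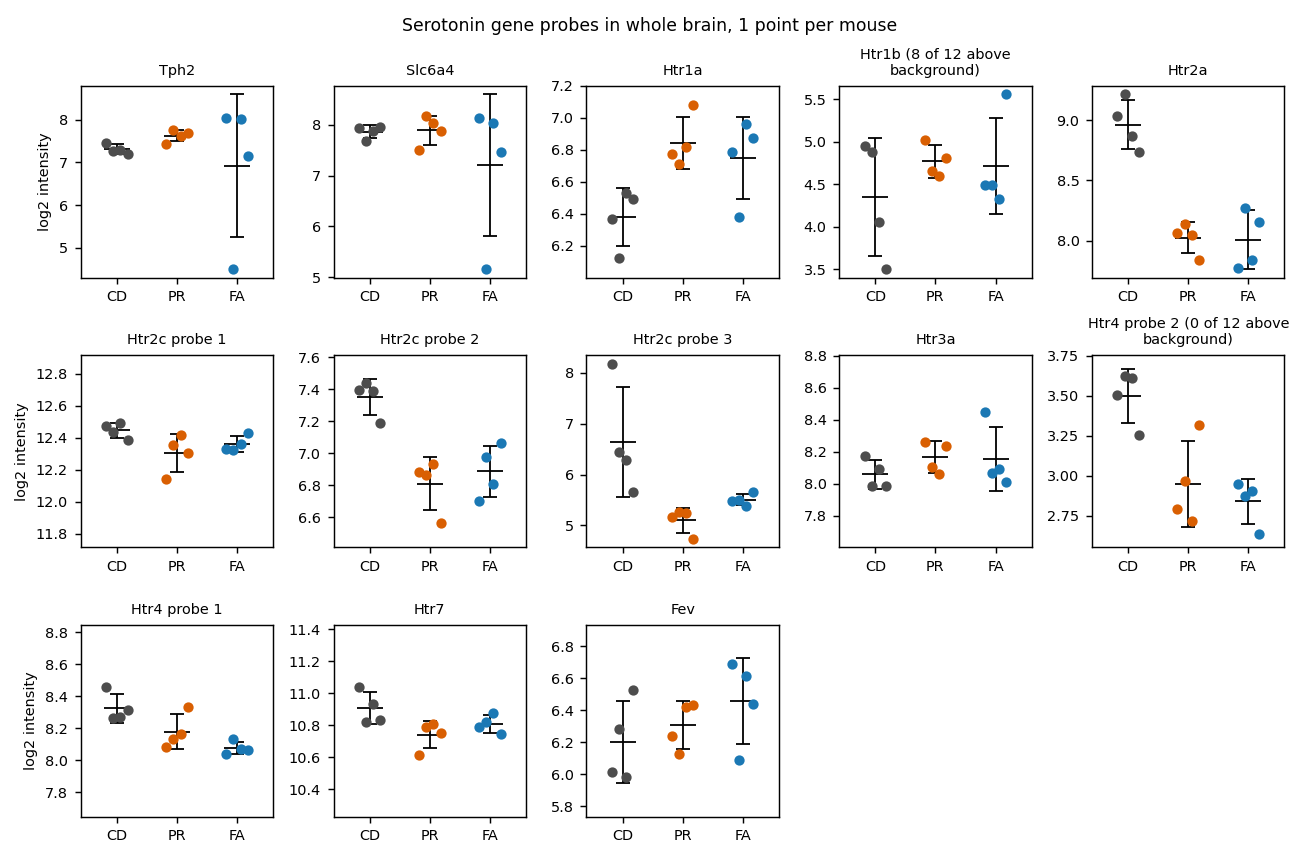
Log2 intensity (y axis) of the 13 serotonin gene probes in the CD, PR, and FA groups (x axis), 1 point per mouse (n = 4 per diet), with the mean and SD as bars; each panel has its own y range. Htr2a and Htr2c probe 2 lie lower in all PR and FA mice than in every CD mouse, and FA replicate 2 lies far below the other 11 mice for Tph2 and Slc6a4.

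Over the deviations of the 12 mice from the mean of their diet, Tph2 and Slc6a4 had Pearson's r = 0.98 (p = 0.00752 by exact permutation within diets, two-sided, adjusted p = 0.0301 over 4 relations) and Spearman's rho = 0.85 (exact permutation p = 0.0203, adjusted p = 0.0813). Without the 2 mice farthest from the median of Tph2, FA replicates 1 and 2, r was 0.77. Without FA replicate 2 alone, r was 0.81 with an exact permutation p of 0.0301 and an adjusted p of 0.12. Tph2 and Fev had r = 0.62 (exact permutation p = 0.0786, adjusted p = 0.105) and rho = 0.35 (exact permutation p = 0.323, adjusted p = 0.43). Slc6a4 and Fev had r = 0.63 (exact permutation p = 0.0648, adjusted p = 0.105) and rho = 0.51 (exact permutation p = 0.103, adjusted p = 0.207). Both of the latter rested on the extreme mice, since leaving out the 2 farthest left r at 0.02 and -0.03.

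Some other transcripts of raphe neurons were also at their lowest in FA replicate 2. Of 9 probes of a raphe marker list, 7 had their lowest value of the 12 mice there, including the Tph2 and Slc6a4 probes that prompted the look: those of Tph2, Slc6a4, Gata3, and Gchfr, both of Slc18a2 (the vesicular monoamine transporter), and Lmx1b probe 2. The last was hardly below the next mouse, at 5.907 against 5.913 in FA replicate 4, and Lmx1b probe 1 (6.32) and Fev were within the range of the other mice. Slc18a2 probe 1 read 9.30 in FA replicate 2 and 9.58 to 10.69 in the others, and Gchfr, the regulator of the cofactor enzyme GTP cyclohydrolase, read 8.46 against 8.88 to 9.59. The mean of the 9 probes was 7.48 to 7.72 in CD, 7.34 to 7.62 in PR, and 6.57 to 7.89 in FA, and the summed level 11.35 to 11.49, 11.05 to 11.41, and 10.54 to 11.80. Low values in FA replicate 2 were not particular to the raphe list. Among probes well above background in all mice, it was lowest for 9 of 17 choroid plexus and 3 of 3 blood marker probes. It was lowest for 0 of 9 striatal and 0 of 8 cerebellar marker probes. The noradrenergic brain stem genes Dbh (dopamine beta-hydroxylase) at 9.71 and Slc6a2 (the noradrenaline transporter) at 7.59, were not low in this mouse. Of the 6 probes of the noradrenergic and dopaminergic marker list that holds them, 2 were lowest there. These were both probes of Ddc, which is also in the synthesis list. They read 11.30 against 11.46 to 12.23 in the others, and 6.54 against 6.64 to 7.94. Among the further receptors, Htr5b read 7.82 in this mouse and 8.08 to 8.96 in the others, while Htr1f read 8.43 and 7.05 to 7.87.

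**Figure D2:**
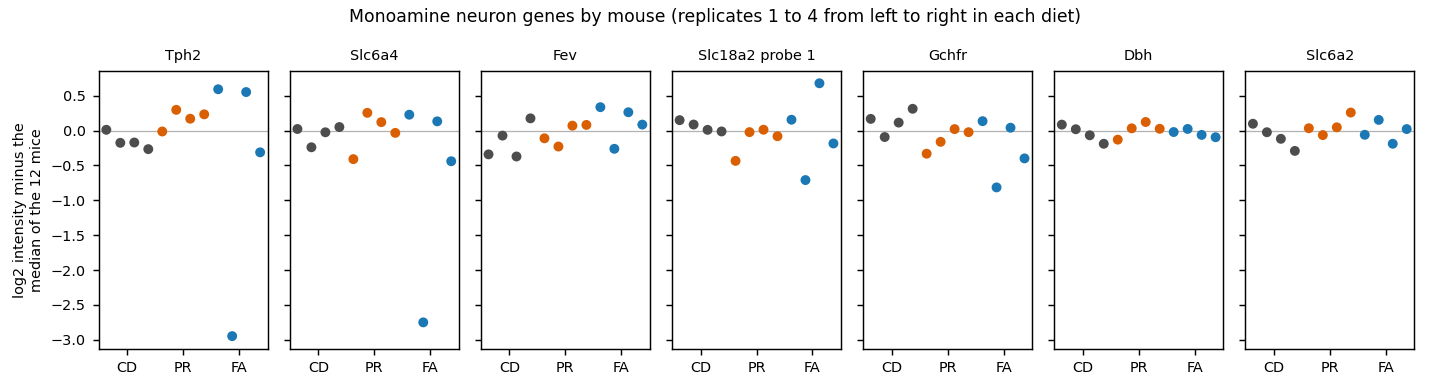
Log2 intensity minus the median of the 12 mice (y axis) for serotonin neuron genes (Tph2, Slc6a4, Fev), genes shared with other monoamine neurons (Slc18a2, Gchfr), and noradrenergic genes (Dbh, Slc6a2), 1 point per mouse in the order of replicates 1 to 4 within CD, PR, and FA (x axis). FA replicate 2 is the lowest point for Tph2, Slc6a4, Slc18a2, and Gchfr and lies among the others for Dbh and Slc6a2.

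By Pearson's r over the deviations of the 12 mice from their diet means, the 5 genes most like Tph2 among 23753 probes well above background in all mice were Slc6a4 (0.98), Hmx3 (0.98), Ampd2 (0.97), Irs4 (0.97), and Agrp (0.97). All 5 had their lowest value in FA replicate 2. Hmx3, a hypothalamic homeobox gene, read 4.66 there and 6.44 to 7.17 elsewhere, and Agrp, an appetite peptide of the hypothalamus, read 4.80 against 6.43 to 7.38. Ampd2, an enzyme of purine metabolism, read 11.39 with this probe and 13.35 to 13.52 in the others, but its second probe read 11.44 in FA replicate 2 and 11.33 to 11.58 in the rest. Without FA replicate 2, the r of the 5 with Tph2 was 0.81, 0.80, 0.73, 0.69, and 0.61, and their ranks among the same 23753 probes were 66, 75, 209, 305, and 627, so the order rested on that mouse. In all, 11 of the 23753 probes lay at least 2-fold below every other mouse in FA replicate 2, against 0 to 19 in the other mice.

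Among the receptors, Htr2a, the main excitatory serotonin receptor of cortical pyramidal neurons, was called lower in both diets. Its probe (chr14:75106454-75106513, plus strand) read 9.03, 9.21, 8.87, and 8.74 in CD, 8.07, 8.14, 8.05, and 7.84 in PR, and 7.77, 8.27, 7.83, and 8.16 in FA. Every PR and FA mouse lay below every CD mouse. The level fell by 0.94 (SE 0.13, 1.92-fold, adjusted p = 0.000599) in PR and by 0.96 (SE 0.13, 1.94-fold, adjusted p = 0.000461) in FA. PR and FA overlapped, with a difference of -0.01 (95% interval -0.31 to 0.28). The call against CD held in each of the 21 alternative settings for both diets, with falls of 0.62 in each under a normexp background.

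In all, 5 of the 13 probes were called in PR relative to CD, 1 higher (Htr1a) and 4 lower (Htr2a, 2 of Htr2c, 1 of Htr4). Of all probes, 30% were called in this comparison, 13.4% higher and 16.6% lower. In FA relative to CD, 4 of the 13 were called, all lower (Htr2a, 1 of Htr2c, both of Htr4), where 34.4% of all probes were called, 16.4% higher and 18% lower. In FA relative to PR, none of the 13 was called by limma (0 at an unadjusted p under 0.05, 0 by the Tukey test of the methods), where 0.614% of all probes were. The groups did not overlap for 5 members in PR relative to CD, 1 higher and 4 lower, where 33.2% of all probes did not (14.2% higher, 19% lower). This held for 5 members in FA relative to CD, all lower, where it held for 36.9% of all probes (17.1% higher, 19.7% lower). In FA relative to PR it held for 1 member, Htr2c probe 3, which was higher, and for 11.1% of all probes (6.15% higher, 4.94% lower). The shares of members called against CD, 38.5% and 30.8%, were near those of the whole array. The study's own limits were a 2-fold difference at an adjusted p under 0.0001 by the Tukey test. In the limma fit used here, no member reached these limits, which 0.0862% of probes passed in PR and 0.195% in FA. With the Tukey test as run here, 0 probes passed them higher and 0 lower in PR, and 0 higher and 1 lower in FA. The median difference of the 13 probes was -0.14 in PR and -0.25 in FA, beside -0.02 and -0.01 over all probes.

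**Figure D3:**
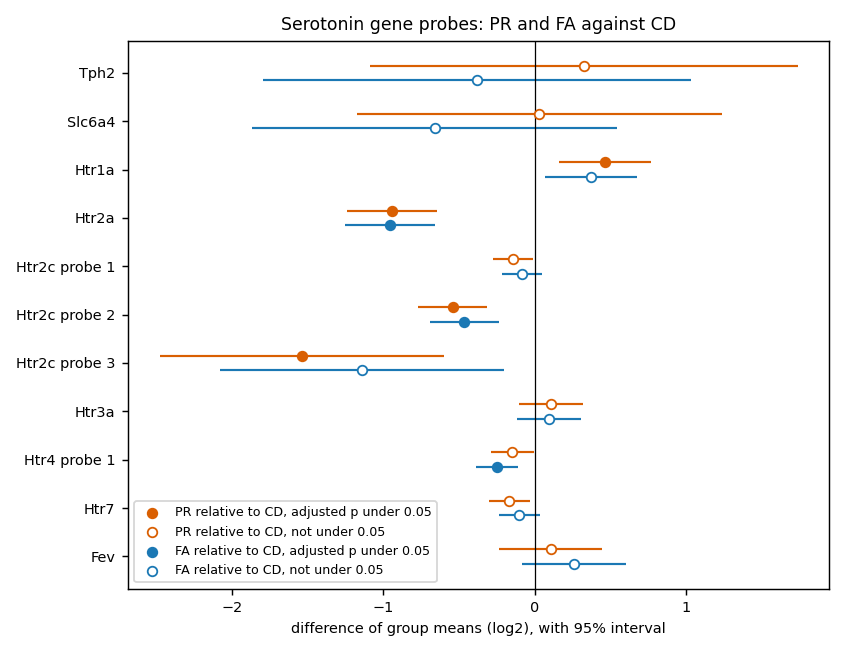
Difference of the PR mean (orange) and the FA mean (blue) from the CD mean on the log2 scale (x axis) with its 95% interval for the 11 probes that were well above background in all mice (y axis); filled points have an adjusted p under 0.05. Htr2a lies near -0.94 and -0.96, and the intervals of Tph2 and Slc6a4 are the widest.

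Htr2c, a receptor abundant in the choroid plexus and in many forebrain neurons, gave different answers with its 3 probes, which sit on separate stretches of the transcript. Probe 1 (chrX:143631655-143631714) lies 2576 bases downstream of probe 3 (chrX:143629079-143629138), which in turn lies 24930 bases downstream of probe 2 (chrX:143604149-143604208), all on the plus strand. The sequences of the called probes are shown because they fix which part of the mRNA was measured. Probe 2 lies in the coding sequence, and probe 3 ends with the stop codon, in capitals.
Htr2c probe 2: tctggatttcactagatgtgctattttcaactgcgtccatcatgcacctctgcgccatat
Htr2c probe 3: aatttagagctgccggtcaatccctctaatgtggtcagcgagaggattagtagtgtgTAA
Probe 2 read 7.40, 7.44, 7.39, and 7.19 in CD, 6.89, 6.86, 6.93, and 6.56 in PR, and 6.70, 6.98, 6.81, and 7.06 in FA. No PR or FA value reached the lowest CD value. It fell by 0.54 (SE 0.10, adjusted p = 0.00309) in PR and by 0.47 (SE 0.10, adjusted p = 0.00572) in FA, and was called in all 21 alternatives for both.

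Probe 3, at the end of the coding sequence, read 8.18, 6.45, 6.28, and 5.66 in CD, 5.17, 5.26, 5.25, and 4.74 in PR, and 5.48, 5.51, 5.38, and 5.65 in FA. CD replicate 1 stood well above the other CD mice, and the lowest CD mouse and the highest FA mouse were nearly equal. The fall was 1.54 (SE 0.42, 2.9-fold, adjusted p = 0.0201) in PR, and -1.14 was measured in FA (adjusted p = 0.0603). Without CD replicate 1, these became -1.02 (adjusted p = 0.00438) and -0.63 (adjusted p = 0.0331). The PR call was lost in 3 of the 21 alternatives, the Tukey test of the methods (adjusted p = 0.0792), the fit of CD and PR alone (0.0584), and the fit without PR replicate 4 (0.056), with a range of 0.00438 to 0.0792 over all 21. With a normexp background the differences were -0.72 in PR (adjusted p = 0.0411) and -0.62 in FA (adjusted p = 0.0584).

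With probe 1, neither diet was called different from CD in the main fit. It read 12.47, 12.44, 12.49, and 12.39 in CD, 12.14, 12.35, 12.42, and 12.30 in PR, and 12.33, 12.32, 12.36, and 12.43 in FA, and the groups overlapped. The differences from CD were -0.14 (SE 0.06, adjusted p = 0.0989) in PR and -0.09 (SE 0.06, adjusted p = 0.3) in FA. Their intervals, -0.27 to -0.01 and -0.22 to 0.05, do not reach the falls measured with probe 2. Probe 1 was called lower in PR in 1 of the 21 alternatives, 75th percentile scaling (-0.19, adjusted p = 0.0421).

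A list of choroid plexus markers was set beside Htr2c, since this tissue can be lost in dissection. Of its 18 probes, 1 was called higher and 2 lower in PR than in CD, and 2 lower in FA. That is 16.7% and 11.1%, beside 30% and 34.4% of all probes. The summed level of the list was 17.20 to 17.27 in CD, 17.24 to 17.35 in PR, and 17.07 to 17.29 in FA. Over the 12 deviations, Htr2c probe 1 and the mean of the 17 bright probes of the list had r = 0.00 (exact permutation p = 0.994, adjusted p = 0.994) and rho = 0.01 (exact permutation p = 0.992, adjusted p = 0.992), and r = 0.21 without CD replicate 3 and PR replicate 1, the farthest 2 mice. Htr2c probes 2 and 3 were not set against the list, so these values do not bear on their falls. The 5 genes most like Htr2c probe 1 by the same measure were Me1 (0.95), Smad9 (0.93), Asxl2 (0.91), Mal (0.91), and AI314604 (0.91). For each of these the lowest value was that of PR replicate 1, as it was for Htr2c probe 1.

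Htr1a, the inhibitory receptor found on raphe neurons themselves and on hippocampal and cortical targets, was the 1 member called higher. Its probe (chr13:106237236-106237295, plus strand) read 6.37, 6.12, 6.53, and 6.49 in CD, 6.77, 6.71, 6.82, and 7.08 in PR, and 6.79, 6.38, 6.96, and 6.88 in FA. All PR mice lay above all CD mice, while FA replicate 2 lay among the CD mice. It rose by 0.46 (SE 0.14, 1.38-fold, adjusted p = 0.0278) in PR. This call was lost in 5 of the 21 alternatives, the Tukey test of the methods (adjusted p = 0.0969) and the fits without CD replicate 1 (0.0571), CD replicate 2 (0.0727), PR replicate 3 (0.0525), or PR replicate 4 (0.0774), and the adjusted p ran from 0.00514 to 0.0969 over the 21. In FA the difference was 0.37 (SE 0.14, adjusted p = 0.0602), and without FA replicate 2 it was 0.49 (adjusted p = 0.0103).

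Htr1b, an autoreceptor of serotonin axon terminals, was at the edge of detection. Its probe (chr9:81525015-81525074, minus strand) was well above background in none of the CD mice and in all PR and FA mice. The CD slide was also the one with the lowest negative control signal and the fewest spots above background, and the part of this in the detection of Htr1b was not tested. The probe sequence, from the end of the coding region, is shown because this was the 1 member whose detection differed by diet.
Htr1b: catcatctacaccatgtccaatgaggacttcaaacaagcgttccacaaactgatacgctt
It read 4.95, 4.88, 4.05, and 3.50 in CD, 5.02, 4.66, 4.59, and 4.80 in PR, and 4.49, 4.49, 4.32, and 5.55 in FA. The groups overlapped, and neither diet was called different from CD (adjusted p = 0.394 in PR and 0.45 in FA). No size of difference is given, because the PR and FA means of 4.77 and 4.71 lie under 5.07, the mean of the lowest signals that passed as above background on the CD arrays.

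The receptors that raise cyclic AMP showed small differences. Htr4 probe 1 (chr18:62627259-62627318, plus strand) read 8.45, 8.26, 8.27, and 8.32 in CD, 8.08, 8.13, 8.17, and 8.33 in PR, and 8.04, 8.13, 8.07, and 8.07 in FA. All FA mice lay below all CD mice, and PR replicate 4 lay among the CD mice. It fell by 0.25 (SE 0.06, 1.19-fold, adjusted p = 0.0117) in FA, and the PR difference was -0.15 (SE 0.06, adjusted p = 0.104). Without PR replicate 4, the PR difference was -0.20 and was called (adjusted p = 0.0291). Htr4 probe 2 spans 9266 bases of genome (chr18:62587815-62597080), and so crosses an exon junction, and was not above background in any mouse, at 3.26 to 3.62 in CD, 2.72 to 3.31 in PR, and 2.64 to 2.95 in FA. It was called lower in PR (adjusted p = 0.0115) and in FA (adjusted p = 0.00389), but as no group was above background no fold is given, and both calls were lost with 75th percentile scaling (adjusted p = 0.22 in PR and 0.0574 in FA) and with a normexp background (0.777 and 0.9).

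Htr7 (chr19:36033339-36033398, minus strand), a receptor of the thalamus, hypothalamus, and hippocampus, read 11.04, 10.82, 10.94, and 10.84 in CD, 10.62, 10.79, 10.81, and 10.75 in PR, and 10.79, 10.82, 10.88, and 10.74 in FA. All PR mice were below all CD mice, but the difference of -0.17 (SE 0.06, adjusted p = 0.0659) did not pass, nor did that of -0.10 (SE 0.06, adjusted p = 0.239) in FA. With limma's trend and robust options, the PR difference was called (adjusted p = 0.0486). Htr3a (chr9:48707773-48707832, minus strand), the channel receptor of a class of cortical interneurons, read 8.17, 7.99, 8.09, and 7.99 in CD, 8.26, 8.10, 8.06, and 8.23 in PR, and 8.45, 8.07, 8.09, and 8.01 in FA. The groups overlapped, with differences of 0.11 (95% interval -0.11 to 0.32, adjusted p = 0.436) in PR and 0.10 (95% interval -0.12 to 0.31, adjusted p = 0.47) in FA.

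Around the members, 54 further genes of serotonin signalling were measured with 74 probes. Of these probes 8 were called higher and 11 lower in PR than in CD, 8 higher and 13 lower in FA than in CD, and 0 in FA relative to PR by limma (10 at an unadjusted p under 0.05, 0 by the Tukey test). That is 25.7% and 28.4%, beside 30% and 34.4% of all probes, and the median difference was -0.02 and -0.05. None of the 7 other receptor genes (Htr1d, Htr1f, Htr2b, Htr3b, Htr5a, Htr5b, Htr6) was called by limma or by the Tukey test in any comparison (at an unadjusted p under 0.05, 3 in FA against CD, 1 in FA against PR, and 0 in PR against CD). Of these, 4 were well above background in all mice.

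Among 18 probes for synthesis, storage, and breakdown, 2 were called higher and 1 lower in PR, and 2 higher in FA. Qdpr, which regenerates the tetrahydrobiopterin cofactor that Tph2 needs, rose with its probe 2 by 0.33 (adjusted p = 0.0224) in PR and 0.49 (adjusted p = 0.00285) in FA. Its probe 1 rose by 0.26 (adjusted p = 0.00692) in FA and measured 0.15 higher (adjusted p = 0.0853) in PR. Maoa, the enzyme that breaks serotonin down, read 10.14, 10.11, 10.18, and 10.12 in CD and 9.78, 9.99, 9.90, and 9.74 in PR. It fell by 0.28 (SE 0.07, adjusted p = 0.0104) in PR, and the FA difference was -0.15 (adjusted p = 0.111). Aldh2, the aldehyde dehydrogenase that acts after it, rose by 0.19 (adjusted p = 0.0329) in PR and measured 0.05 higher (adjusted p = 0.585) in FA.

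Of 12 probes for transcription factors that specify serotonin neurons, 3 were called lower in PR, and 3 lower and 1 higher in FA. Insm1, a zinc finger factor of newborn neurons, fell by 0.33 (adjusted p = 0.00186) in PR and by 0.29 (adjusted p = 0.00313) in FA. Lmx1b, which acts with Fev in raphe neurons, had 2 probes that disagreed. Probe 2 fell by 0.35 (adjusted p = 0.0207) in PR and by 0.40 (adjusted p = 0.00857) in FA, while probe 1 rose by 0.36 (adjusted p = 0.0425) in FA and measured 0.23 higher (adjusted p = 0.18) in PR.

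The list of coupling and signalling genes held 37 probes, of which 6 were called higher and 7 lower in PR, and 5 higher and 10 lower in FA. The other 24 in PR and 22 in FA were not called. In both diets these include Kcnj9 and the probes of Adcy5, Kcnj3, Gnas, Plcb1, and Plcb4 that are not named below. Of the adenylyl cyclases, which make cyclic AMP, Adcy2 rose by 0.27 (adjusted p = 0.0115) in PR and 0.41 (adjusted p = 0.00107) in FA, and Adcy5 probe 1 by 0.21 (adjusted p = 0.0123) and 0.20 (adjusted p = 0.0122). Adcy8 fell by 0.20 (adjusted p = 0.0322) in FA and measured -0.17 (adjusted p = 0.0691) in PR. Of the potassium channel subunits through which Htr1a silences neurons, Kcnj3 probe 1 fell by 0.21 (adjusted p = 0.0206) in PR and by 0.19 (adjusted p = 0.0257) in FA, and Kcnj6 by 0.31 (adjusted p = 0.035) and 0.39 (adjusted p = 0.0109). Ppp1r1b, a phosphoprotein of striatal neurons, rose by 0.18 (adjusted p = 0.0309) in PR and 0.21 (adjusted p = 0.012) in FA.

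Among the G protein subunits, the probes of a gene often disagreed. Gnaz probe 1 rose by 0.14 in both PR (adjusted p = 0.0178) and FA (adjusted p = 0.0151), while its probe 2 fell by 0.29 (adjusted p = 0.0113) and 0.28 (adjusted p = 0.0114). Gnas, the stimulatory subunit, rose with probe 1 by 0.24 (adjusted p = 0.00695) in PR and 0.25 (adjusted p = 0.00505) in FA, while probe 3 fell by 0.50 (adjusted p = 0.034) in PR. Gnao1 fell with both called probes in PR, by 0.29 (adjusted p = 0.0325) and 0.57 (adjusted p = 0.0109), and with probe 2 by 0.53 (adjusted p = 0.0128) in FA. Gnai2 fell by 0.21 (adjusted p = 0.0484) in FA and measured 0.07 higher (adjusted p = 0.534) in PR.

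Of the partners of Htr2 receptors, Plcb1, a phospholipase C, had called probes that each passed in only 1 diet. Its probe 3 rose by 0.28 (adjusted p = 0.0103) in PR and measured 0.18 higher (adjusted p = 0.0653) in FA. Its probe 2 fell by 0.38 (adjusted p = 0.0429) in FA and measured 0.16 higher (adjusted p = 0.386) in PR. Plcb4 probe 2 fell by 0.27 (adjusted p = 0.036) in FA. Of the scaffold proteins that bind the tails of Htr2a and Htr2c, Dlg4 fell by 0.22 (adjusted p = 0.0499) in PR and 0.37 (adjusted p = 0.00418) in FA, and Mpdz fell by 0.41 (adjusted p = 0.00108) in FA and measured -0.17 (adjusted p = 0.0706) in PR.

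**Figure D4:**
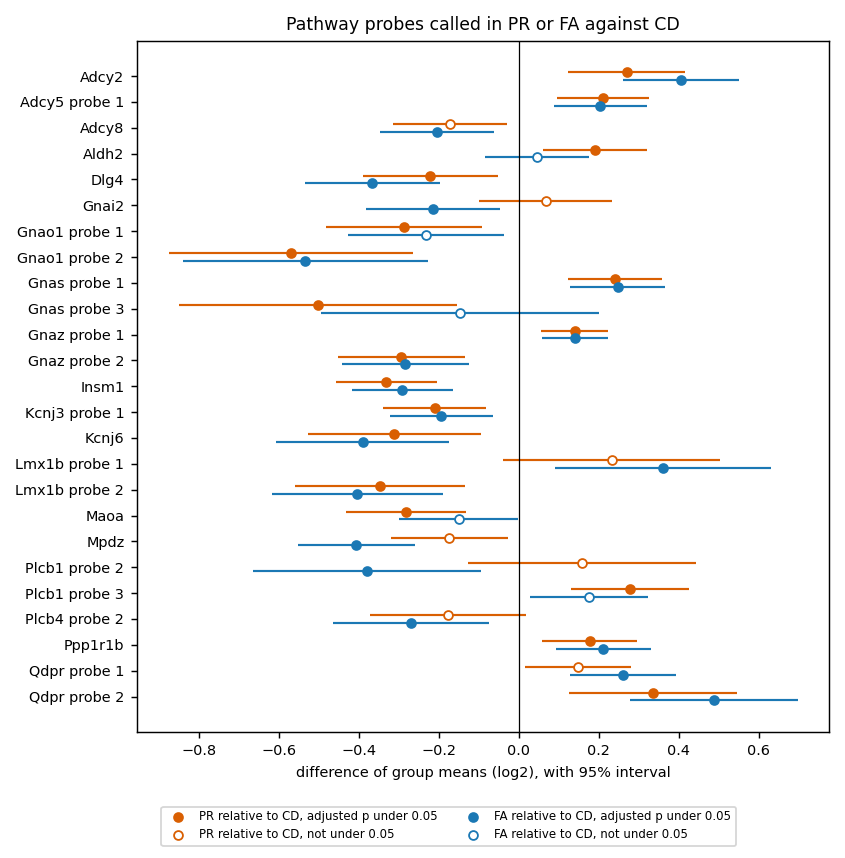
Difference of the PR mean (orange) and the FA mean (blue) from the CD mean on the log2 scale (x axis) with its 95% interval for the pathway probes named in the text (y axis), each called in at least 1 diet; filled points have an adjusted p under 0.05. The called differences run from -0.57 (Gnao1 probe 2 in PR) to 0.49 (Qdpr probe 2 in FA), and the probes of Gnaz, Gnas, Lmx1b, and Plcb1 lie on both sides of 0.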

How the data were processed

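Whole-brain RNA of 12 mice was hybridized to 1 Agilent array each. Per the file headers, Feature Extraction 11.0.1.1 (a version that the submitters' processing notes also give) removed the local background and a spatial trend from every spot intensity, with probes annotated to mm9. The authors deposited these spot intensities and a table of 1 qspline-normalized intensity per probe on the linear scale, which was used here after log2. The promoter methylation samples were not analysed here.

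Mice were grouped by diet label. All 39429 probes of the 3 diets were fitted together in limma 3.58.1 (R 4.3.3), with Benjamini-Hochberg adjustment over all probes. Each member probe had 1 spot, levels of different probes were not compared, and precision is limited by 4 arrays per diet. A bound for a probe above background in 1 group used the lowest signal well above background on each array. Covariation was tested by exact permutation within diets (13824 arrangements). Tables and figures were made in Python 3.11.15 with pandas 2.3.3, scipy 1.17.1, and matplotlib 3.10.9. The fits were tested on simulated data.

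Named were every member probe, each pathway gene with a called probe (except 1 gene, counted in its list but not reported here), and the 5 genes most like Tph2 and Htr2c. Tph1, Htr1f, the pituitary, noradrenergic, and raphe marker genes, and the genes listed after the report as standing apart were named after their values were seen. The members and gene lists were chosen with earlier results of these data known. Alternatives were another qspline run without outlier spots, 75th percentile scaling, quantile normalization, a normexp background with an offset of 50, leaving out dim probes, replicate number as a block, limma's trend and robust options, fitting 2 groups alone, the Tukey test of the methods, and leaving out each array. RefSeq promoter windows were found for 8 of the 10 genes.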

Additional observations from a re-analysis of the deposited data

Results flagged for a closer look

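Groups of 4 mice, 183 in all, were examined for the genes named here. In 15, the gap of a mouse to its nearest neighbour, relative to the range of its group, passed Dixon's critical value for 4 samples. Chance gives about 5% of groups when genes are chosen without regard to their values. That rate is no measure for this set, since Tph1, Htr1f, Gh, and Prl, which hold several of the flags, were named after their values were seen. Among the members, Htr1b read 5.55 in FA replicate 4 and 4.32 to 4.49 in the other FA mice.

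Tph1, the tryptophan hydroxylase of the pineal gland, read 7.74 in PR replicate 1 (4.69 to 5.17 in the other PR mice) and 8.63 in FA replicate 1 (5.23 to 5.35 in the other FA mice). The photoreceptor and pineal gene Sag was highest in FA replicate 1 as well, at 7.17, and read 6.31 in PR replicate 1. Gh and Prl read 6.16 and 7.35 in FA replicate 4 and at most 2.58 and 2.47 in the other FA mice, and Gh read 8.37 in CD replicate 2.

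Htr1f read 8.43 in FA replicate 2, Htr2b 4.61, and Htr3b 4.43, each above the other FA mice. Htr2b and Htr3b were well above background in none of the CD mice and in 1 FA mouse each, and Htr3b in none of the PR mice. In PR replicate 1, Aldh2 read 11.96 and Htr3b 2.85, above the other PR mice, and Ddc probe 2 read 7.09 and Gch1 probe 2 read 6.32, below them. Lmx1b probe 1 read 6.12 in PR replicate 2 and Plcb4 probe 2 read 10.17 in FA replicate 3, both below their groups. The low Tph2 and Slc6a4 of FA replicate 2 did not pass the critical value, since FA replicate 4 was also below the remaining FA mice.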

How the results depend on the processing

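The 4 mice per diet limit the precision, and slide and diet cannot be told apart under any setting. Of the 29 differences of members that were examined, 14 kept their direction and their side of the threshold in all alternatives, and 23 never changed direction; the causes of the changes were not tested. With a normexp background, the PR to CD difference became -0.0016 for Slc6a4 and 0.024 for the dim Htr4 probe 2. Without each array in turn, the PR to CD difference of Slc6a4 ran from -0.059 to 0.16, the FA to CD differences from -0.75 to 0.43 (Tph2), -0.97 to 0.021 (Slc6a4), and -0.0022 to 0.14 (Htr3a), and the FA to PR difference of Tph2 from -1.07 to 0.11. The upper end for Tph2 and Slc6a4 in FA is that without FA replicate 2, and the lower end for Htr3a that without FA replicate 1.

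The Tukey test called 3 member probes and 10 pathway probes in PR relative to CD. Leaving out an array left 4 to 5 member and 12 to 20 pathway probes called there, 12 without CD replicate 2 and without PR replicate 4. Probes differing between FA and PR over the whole array numbered 242, but 139 with 75th percentile scaling, 554 without dim probes, 436 with trend and robust variance, 101 with the groups fitted alone, 8 by the Tukey test, and 34 to 259 without each array. The correlation of Tph2 with Slc6a4 ran from 0.81 to 0.99 without each array, with adjusted p above 0.05 without PR replicate 1 or any FA mouse. That of Slc6a4 with Fev ran from 0.20 to 0.73, and reached adjusted p = 0.0324 without PR replicate 2. That of Htr2c probe 1 with the choroid plexus list ran from -0.25 to 0.20, and was -0.088 with 75th percentile scaling and -0.0049 with quantile normalization.

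The labels do not say whether equal replicate numbers mark paired mice. Of 12 pairs with the same number, 3 correlated above 0.1 (range -0.06 to 0.20), and pairs with other numbers ran from -0.22 to 0.18. The ranges overlap and do not settle pairing. The negative control signal rose with the replicate number on each slide, from 28.1 to 34.8 in CD, 42.7 to 51.2 in PR, and 39.3 to 47.6 in FA. With the replicate number as a block, 11 probes differed between FA and PR, and Htr1a was called in FA relative to CD (adjusted p = 0.0103).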
